A study of Mus musculus with 63 samples.

Results

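The clustered histone genes are the rows of both expression tables whose symbol starts with Hist1h, Hist2h, Hist3h or Hist4h. There were 71 such rows (70 names, 3 of the rows pseudogenes) among the 34745 rows of each table. A member was kept in a tissue when it had at least 10 counts in 3 or more libraries of that tissue, which left 30 in ovary and 40 in pituitary. Of these, 28 were kept in both tissues, 2 in ovary alone (Hist1h2ag and Hist1h3c), 12 in pituitary alone, and 29 rows were kept in neither. The members were selected on their counts, so levels are given here as a description.

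The study sequenced ovary and pituitary RNA of female C57BL/6 mice, either controls or exposed to chronic unpredictable mild stress (written CUMS here). CUMS exposes animals to changing mild stressors over weeks. The sample titles give an age of 2 or 6 months (2M, 6M) and a duration of 8 or 12 weeks (8W, 12W). This makes 4 sets per tissue, each with 4 CUMS and 4 control libraries, except the 6M-12W ovary set with 3 controls.

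All animals were of 1 strain and sex, and no genotype, transgene or drug is given. The sources used here do not say whether each library is a separate animal, nor the estrous stage, the sequencing batch or the time of collection, so the p-values measure the spread between these libraries. Where animals of a set were handled apart from those of another, set and batch cannot be told apart.

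The histones H2A, H2B, H3 and H4 form the core around which DNA is wound, and H1 is the linker histone that binds between these cores. Most clustered histone genes are replication-dependent: they are switched on when a cell copies its DNA, carry no intron, and their messages end in a conserved stem-loop in place of a poly-A tail. The stem-loop binding protein Slbp and the U7 RNA particle cut and protect that end, Npat drives transcription at S phase, and replacement histones such as H2afz and H3f3b are made throughout the cell cycle with ordinary poly-A tails. Some clustered genes, among them Hist1h2bc, Hist1h1c, Hist2h2be and Hist3h2a, are also known to give polyadenylated messages in cells that do not divide.

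The stem-loop is shown because it is the feature that sets these messages apart from nearly all others. It was searched in GENCODE transcripts as a stem of 6 paired bases that opens with GG. The stem has T next to a loop of 4 bases. Members were searched over all bases after the stop codon of each coding transcript, and other transcripts over the first 100 alone. The stem-loop was found in 46 of the 71 members and in 14 of 40175 other transcripts (0.0348%). These shares come from searches of unlike length, and members are counted per gene. The 8 forms found are written as DNA, with the paired stem in capitals and the loop in lower case. The most common form was shared by members of 4 of the 5 histone classes, and the H4 genes had forms of their own.
26 members of H1, H2A, H2B and H3, including Hist1h1c, Hist1h2be, Hist1h3d and Hist2h3c2: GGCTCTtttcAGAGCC
6 members (Hist1h1t, Hist1h2bb, Hist1h2bk, Hist1h3c, Hist1h3e, Hist1h3f): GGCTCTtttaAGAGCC
7 H4 members, including Hist1h4c, Hist1h4h and Hist1h4n: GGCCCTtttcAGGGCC
Hist1h4i and Hist2h4: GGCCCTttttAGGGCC
Hist1h4b and Hist1h4j: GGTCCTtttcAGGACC
Hist1h4a: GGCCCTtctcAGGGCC
Hist1h3g: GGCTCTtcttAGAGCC
Hist2h2ac: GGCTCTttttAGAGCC

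The annotated transcript end divided the members. In 24 members the longest transcript ran more than 60 bases past the stem-loop, and 17 of these were kept in ovary and 22 in pituitary. Another 22 members ended at the stem-loop, and 7 and 8 of them were kept. For 14 members only the coding part is annotated (2 and 6 kept), 8 had bases after the stop codon without the stem-loop (4 and 4 kept, Hist1h2bc and Hist2h2be among them), and 3 had no coding transcript. The median of mean FPKM (reads scaled to gene length and to library size) was 3.66 in pituitary for the 24 members running past the stem-loop against 0.458 for the 22 ending there. In ovary the medians were 0.463 and 0.336. The level was thus higher for the longer annotated ends in pituitary, and low for both kinds in ovary.

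Promoter windows of RefSeq (build GRCm38.p6, 250 bases before the gene start) were found for 62 members. The CCAAT box, searched on both strands, was present in 51 of them (82.3%) against 37.5% of the 27025 RefSeq genes with a window. It was in all 17 H2A, 17 H2B and 6 H1 windows and in 3 of 12 H4 windows. The TATA letters TATAAA were in 29 members (46.8%) against 14.3% of all genes. The octamer ATTTGCAT, the site known to bind Oct-1 in H2B promoters, was in 15 members (24.2%), 8 of 17 H2B and 7 of 17 H2A, against 1.81% of all genes. Windows of 3 genes that fell with stress in the pituitary are shown, 5′ to 3′ along the gene, with matches of these 3 motifs on either strand in capitals. Hist1h2be has 2 RefSeq starts, and the downstream window is given.
Hist1h2be, chr13:23585971-23586220, minus strand: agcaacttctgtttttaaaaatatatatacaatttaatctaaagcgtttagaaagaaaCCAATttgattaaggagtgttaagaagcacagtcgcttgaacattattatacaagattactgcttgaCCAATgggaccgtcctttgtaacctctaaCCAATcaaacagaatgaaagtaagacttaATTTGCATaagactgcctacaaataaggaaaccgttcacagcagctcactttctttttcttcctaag
Hist1h3d, chr13:23575513-23575762, plus strand: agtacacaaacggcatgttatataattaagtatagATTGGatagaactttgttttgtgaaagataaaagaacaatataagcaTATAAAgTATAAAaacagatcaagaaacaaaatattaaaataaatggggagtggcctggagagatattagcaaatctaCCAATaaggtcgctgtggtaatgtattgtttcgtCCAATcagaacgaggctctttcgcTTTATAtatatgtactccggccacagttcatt
Hist1h3e, chr13:23562386-23562635, minus strand: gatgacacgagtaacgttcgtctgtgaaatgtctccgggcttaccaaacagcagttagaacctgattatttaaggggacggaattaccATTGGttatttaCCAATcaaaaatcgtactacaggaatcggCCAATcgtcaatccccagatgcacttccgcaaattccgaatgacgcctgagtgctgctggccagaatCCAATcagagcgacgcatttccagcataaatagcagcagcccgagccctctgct
All 3 windows hold CCAAT boxes, the octamer is in that of Hist1h2be alone and the exact TATAAA letters are in that of Hist1h3d alone.

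Levels between genes are compared as FPKM. In ovary the H2B gene Hist1h2bc (ENSMUSG00000018102, chr13:23684199-23692488) had the highest mean, 61.8 FPKM, with 25.6 in the lowest library, a median of 65.4 and 94.7 in the highest. The linker histone gene Hist1h1c (chr13:23738808-23740367) followed at 37.5 FPKM, from 16.2 through a median of 36.1 to 102.1. The next were the H2A gene Hist2h2aa1 at 15.0, the H2B gene Hist2h2be at 13.3, Hist2h2aa2 at 10.6, the H2A gene Hist3h2a at 10.5, and then Hist1h4i at 7.54, Hist2h3c2 at 5.98, Hist1h4k at 4.41 and Hist1h2bf at 3.62 FPKM. Hist1h2bc and Hist1h1c thus had the highest means in ovary, and their ranges overlapped. The stem-loop was found in Hist1h1c and not in Hist1h2bc.

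In pituitary Hist1h2bc was again the highest with a mean of 152.9 FPKM, from 106.6 through a median of 144.1 to 247.6. Hist2h2aa1 at 91.5, Hist2h2aa2 at 36.5 and Hist1h1c at 35.6 FPKM came next, followed by Hist2h3c2 at 17.2, Hist1h1e at 14.9, Hist1h4k at 14.4, Hist2h2be at 13.8, Hist1h2bg at 13.7 and Hist3h2a at 11.1. The last 6 of these lay between 17.2 and 11.1 FPKM, and their order was not tested. Of the 42 members kept in either tissue, 38 had a higher mean FPKM in pituitary and 4 in ovary, with a median ratio of 3.98. The ratio was 16.2 for Hist1h2be and 10.02 for Hist1h3d, against 1.04 for Hist2h2be and 0.947 for Hist1h1c. The tables were scaled separately, so these ratios are descriptions without a test.

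**Figure D1:**
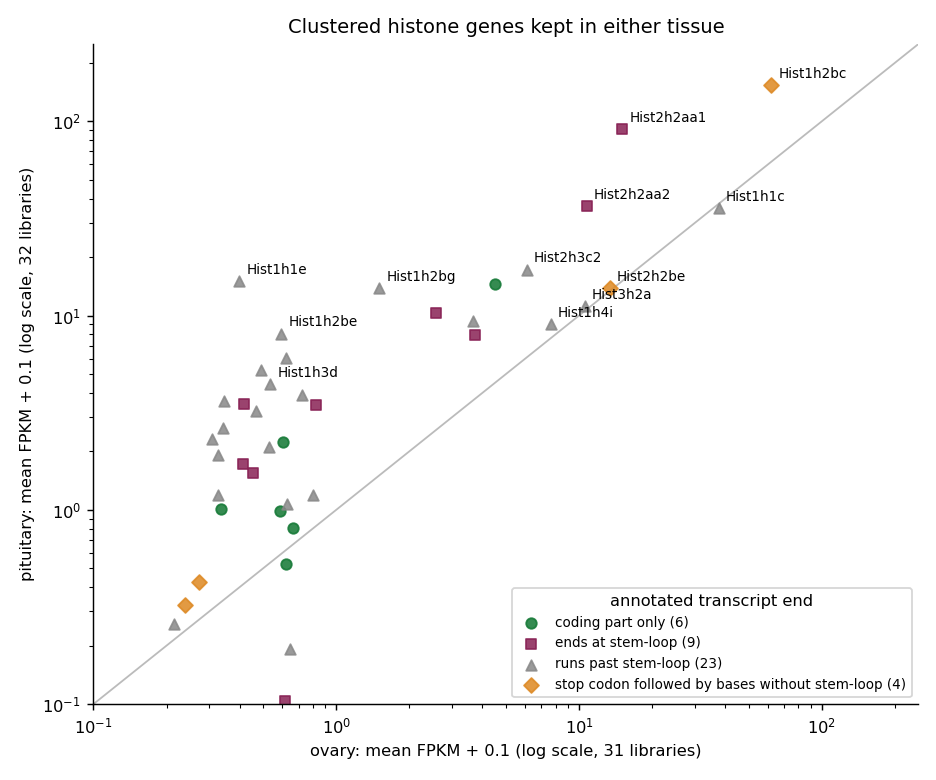
Mean FPKM + 0.1 of the 42 members kept in either tissue, ovary on the x axis (31 libraries) and pituitary on the y axis (32 libraries), both log scales, with marker shape and colour for the annotated transcript end. The line marks equal levels; 38 members lie on the pituitary side, and Hist1h1c and Hist2h2be lie close to the line.

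By class, 4 of 6 H1 members were kept in each tissue, 5 and 8 of 20 H2A, 10 and 11 of 20 H2B, 4 and 6 of 12 H3, and 7 and 11 of 13 H4 members (ovary and pituitary). Among them 8 ovary and 19 pituitary members reached 10 counts in every library, and no kept member reached 10 counts in 1 group alone. The members just inside the limit in ovary, with 3 libraries, were Hist1h1e, Hist1h2ag, Hist1h2bb, Hist1h3c, Hist1h3d, Hist2h3c1 and Hist3h2ba. Just outside, with 1 library, were 12 rows, namely Hist1h2ac, Hist1h2af, Hist1h2ai, Hist1h2ao, Hist1h2bj, Hist1h2bk, Hist1h2bn, Hist1h3e, Hist1h3f, Hist1h3g, Hist1h4b and Hist1h4d. In pituitary Hist1h2ai and Hist1h2bn were just inside with 3 libraries, and Hist1h2ao and Hist3h2bb-ps just outside with 2. edgeR's own filter on low counts then left 27 ovary members (without Hist1h2ag, Hist1h2bb and Hist3h2ba) and 38 pituitary members (without Hist1h1b and Hist1h2bn) for the tests.

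Several of these genes are near-identical copies or overlap other rows, which limits what their counts can say. Hist2h2aa1 and Hist2h2aa2 share an identical run of 528 bases, Hist2h3c1 and Hist2h3c2 one of 666, and Hist1h2bq and Hist1h2br one of 1254. Hist2h2aa1 was all or none: it had at most 4 reads in 23 of 31 ovary libraries and 353 to 1254 in the other 8, and at most 4 in 8 of 32 pituitary libraries and 510 to 1804 in the other 24. Hist2h2aa2 had 17 to 356 reads in every ovary library and 150 to 529 in every pituitary library. The overlapping row Gm20634 had 837 reads in the ovary library with 2 Hist2h2aa1 reads, and 1269 to 2306 in the 3 pituitary libraries with 2 to 4. In the libraries with no Hist2h2aa1 read it had 37 to 222 (22 ovary) and 301 to 611 (5 pituitary), which is not above the 93 to 370 and 172 to 758 of those where Hist2h2aa1 was high. Where the reads of the low libraries went was not tested, and the values of Hist2h2aa1 and Hist2h3c1 are uncertain throughout. Hist3h2a lies within Trim17 over 2146 bases, Hist1h2be overlaps Gm11398 over 320 bases, and no strand setting of the counting is given, so reads of overlapping rows cannot be told apart.

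**Figure D2:**
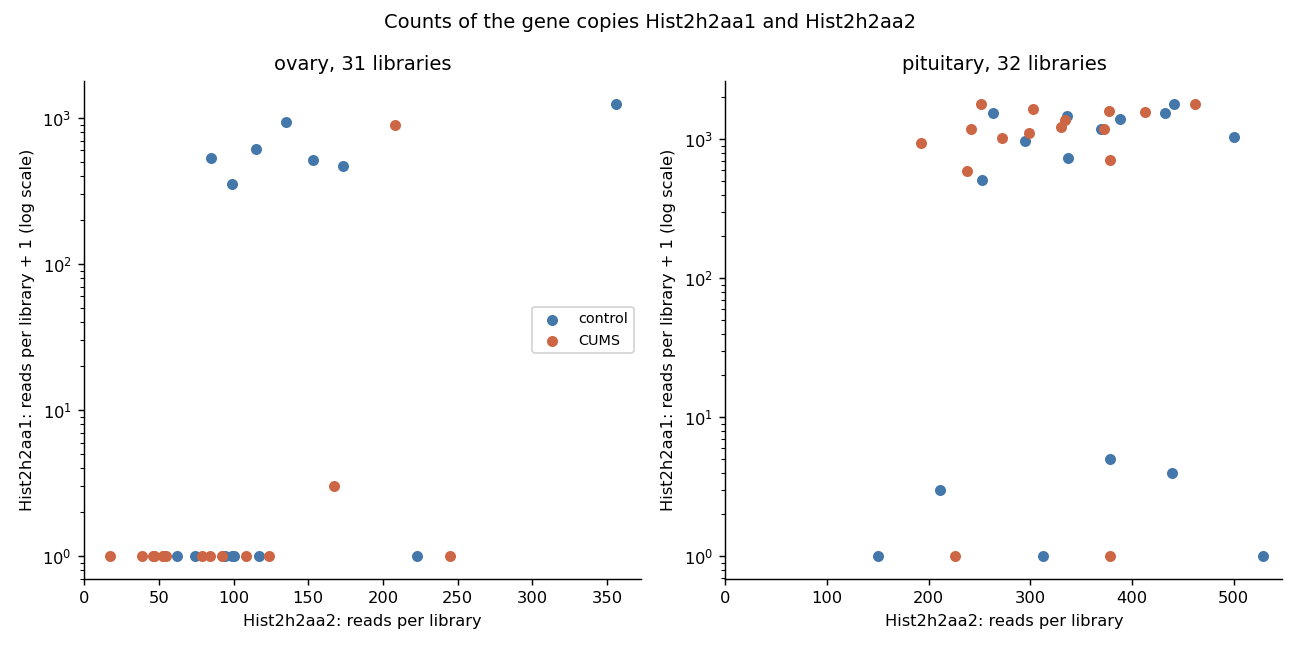
Reads per library of Hist2h2aa1 (+ 1, log y axis) against its copy Hist2h2aa2 (x axis), ovary left and pituitary right, control and CUMS libraries in different colours. The Hist2h2aa1 points fall into a low band of at most 4 reads and a high band of 353 or more, with none between, while Hist2h2aa2 varies without a gap.

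Total counts were 12536371 to 28777668 per ovary library and 13514270 to 24924584 per pituitary library. The labelled tissues matched their markers: 10 ovary markers summed to 6858 to 14571 CPM (counts scaled to the total of the library) in ovary and 39.4 to 95.8 in pituitary libraries, and 8 pituitary markers summed to 164186 to 236871 CPM in pituitary. In ovary libraries the pituitary markers summed to 1.07 to 1558 CPM, the highest in control 1 of the 2M-12W set. Another library of that set, control 3, had the highest histone level of all ovary libraries: 483.8 CPM summed over the members other than the 4 Hist2 copies, against 167.7 to 191.8 in its group. The lymphocyte markers, a dividing cell type, summed to 22.5 to 63.9 CPM in ovary and 7.54 to 21.8 in pituitary. In bulk tissue, fewer cells of a type and less RNA per cell cannot be told apart.

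In the ovary most histone folds lay below 0 after stress in 3 of the 4 sets and above 0 in 6M-8W, and the few members past the test were all lower. Hist1h2bc was called in both the 2M-12W and the 6M-12W set. Values are CPM, and folds are log2, CUMS over control, with their SE from edgeR's quasi-likelihood test and p-values adjusted over all 17766 genes (Benjamini-Hochberg, threshold 0.05).

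In the 2M-12W ovaries 5 of 27 members were called, all lower, where 6.74% of all genes were called and 4.15% were called lower. The median fold of the members was -1.10 against -0.01 for all genes, and 24 of 27 were below 0. The median was -0.26 without control 3, and ran from there to -1.25 as single libraries were left out. Hist1h2bc had 34.8, 55.0, 59.0 and 45.4 CPM in controls and 31.3, 25.1, 18.9 and 20.9 in CUMS ovaries, without overlap (fold -1.06 ± 0.22, adjusted p 0.00505). The H2B gene Hist1h2be (chr13:23583742-23621124) had 5.09, 4.92, 8.94 and 4.89 CPM against 1.27, 2.32, 2.62 and 2.58, again without overlap (-1.47 ± 0.31, adjusted p 0.00554).

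The other 3 called in 2M-12W ovaries were lower in level. The H2B gene Hist1h2bh had 1.10, 2.21, 2.76 and 1.97 CPM in controls and 0.786, 0.936, 0.786 and 0.779 with CUMS (-1.32 ± 0.29, adjusted p 0.00784). The H4 gene Hist2h4 had 0.965, 1.23, 2.64 and 1.13 against 0.665, 0.296, 0.524 and 0.438 (-1.66 ± 0.43, adjusted p 0.0189). Neither gene had overlapping groups. The H3 gene Hist2h3c2 had 4.26, 10.1, 33.5 and 6.46 CPM against 5.69, 1.68, 1.78 and 1.66 (-2.39 ± 0.49, adjusted p 0.00473). Its groups overlapped, and its fold without control 3 was -1.40. Hist1h1c (-1.001 ± 0.34, adjusted p 0.0731), Hist1h3d (-1.77 ± 0.64, adjusted p 0.0929), Hist2h2be (-1.27 ± 0.41, adjusted p 0.0615) and Hist3h2a (-0.14 ± 0.14, adjusted p 0.596) did not pass. Without control 1, the library with the pituitary transcripts, 9 members were called, without control 3 it was 4, without CUMS 1 it was 8, and in a fit of these 8 libraries alone 0 (DESeq2 on all groups called 10).

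In the 6M-12W ovaries 1 of 27 members was called where 11.4% of all genes were and 6.26% were called lower. Hist1h2bc had 38.3, 69.7 and 48.1 CPM in controls and 35.7, 33.2, 29.97 and 26.7 with CUMS, without overlap (-0.78 ± 0.23, adjusted p 0.0293). The call ended without control 2, CUMS 3 or CUMS 4. The median fold was -0.33 and 23 members were below 0. It was -0.04 without control 2 and -0.53 without control 1. Hist1h1c had 40.3, 79.5 and 56.3 CPM against 34.8, 39.7, 33.9 and 27.1, and Hist2h2be 23.0, 42.5 and 22.7 against 17.1, 17.8, 16.3 and 17.4. Neither group of values overlapped, and neither gene passed (adjusted p 0.128 and 0.227).

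In the 2M-8W ovaries no member was called by edgeR (3 had an unadjusted p under 0.05, DESeq2 called Hist2h2aa1) where 6.26% of all genes were, and 23 of 27 folds were below 0 with a median of -0.46 (-0.24 without CUMS 3). The smallest p-values were those of Hist1h1b (-1.45 ± 0.53, adjusted p 0.0968), the uncertain copy Hist2h2aa1 (adjusted p 0.151) and Hist1h2bg (0.81 ± 0.37, adjusted p 0.182). Mki67, the proliferation antigen, rose in this set: 141, 124, 119 and 105 CPM in controls and 177, 172, 258 and 169 with CUMS, without overlap (0.63 ± 0.14, adjusted p 0.0175). Mki67 was thus called higher in a set where most histone folds lay below 0.

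In the 6M-8W ovaries 22 of 27 folds lay above 0, with a median of 0.57. No member was called by edgeR (6 had an unadjusted p under 0.05, DESeq2 called Hist1h2br), where 1.12% of all genes were. The H3 gene Hist1h3d (ENSMUSG00000099583, chr13:23575763-23576322) had 0.272, 0.171, 0 and 0.0469 CPM in controls and 0.301, 0.343, 0.712 and 0.746 with CUMS, which is at most 15 reads in any ovary library (2.19 ± 0.62, adjusted p 0.0726). Hist1h2br (1.61 ± 0.48, adjusted p 0.0870) and Hist1h4j (1.90 ± 0.65, adjusted p 0.142) followed. The 6M-8W set was thus the exception in direction among the ovary sets.

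The stress effect differed between the ovary sets for 2 members, where 4.84% of all genes were called. These were Hist1h3d (adjusted p 0.0380) and Hist2h3c2 (adjusted p 0.0449), both low in 2M-12W and high in 6M-8W CUMS ovaries. Hist2h3c2 had 7.55, 6.11, 4.4 and 6.80 CPM in 6M-8W controls and 9.37, 12.5, 8.12 and 6.21 with CUMS. Neither call is firm: the number of members called ran from 0 to 6 as single libraries were left out, and it was 0 without control 3 or CUMS 3 of 2M-12W, control 4 of 2M-8W, controls 2 or 4 or CUMS 3 of 6M-8W, or controls 1 or 2 or any CUMS library of 6M-12W.

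As the mean of the 4 ovary sets, 5 members were called lower and none higher, where 20.3% of all genes were called and 11.5% were called lower. They were Hist1h2bc (-0.52 ± 0.11, adjusted p 0.00141), Hist2h3c2 (-0.87 ± 0.24, adjusted p 0.0111), Hist1h1c (-0.59 ± 0.17, adjusted p 0.0158), Hist1h2bh (-0.45 ± 0.15, adjusted p 0.0310) and the uncertain copy Hist2h2aa1 (adjusted p 0.0158, no fold given because whole groups are at 0). The median fold was -0.44 against 0.01 for all genes, with 22 of 27 below 0, and it was -0.24 without control 3 of 2M-12W. Hist1h2bc was below its controls' mean in 11 of 16 CUMS ovaries and Hist1h1c in 12 of 16. With so many ovary genes called, 5 of 27 is close to the background share. The count was 8 without control 1 or CUMS 1 of 2M-12W or control 2 of 6M-8W, and 3 without control 2 of 6M-12W or control 4 of 6M-8W.

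Markers of other ovarian cells also differed between the groups, those of luteal cells, the hormone-making cells of the corpus luteum, among them. The 6 luteal markers (Lhcgr, Prlr, Akr1c18, Ptgfr, Star and Cyp11a1, 3 of them also among the ovary markers) summed to 7906 to 11304 CPM in 2M-8W controls and 2930 to 8666 with CUMS. In 2M-12W the ranges were 6703 to 13416 and 4525 to 8117, and in 6M-12W 6315 to 10967 and 5103 to 6183. In 6M-8W, where the histone folds were above 0, they were 7455 to 9986 and 7798 to 13696. Of the 6, 3 were called lower in 2M-8W, 0 by edgeR in 2M-12W, 2 lower in 6M-12W and 0 in 6M-8W, with median folds of -0.86, -1.03, -1.06 and 0.80. Markers of oocytes and of granulosa cells, the follicle cells around the oocyte, went the other way in 6M-12W. There 5 of 11 oocyte markers (median fold 0.84) and 2 of 8 granulosa markers (0.49) were called higher. As the mean of the 4 sets 3 of 11 (0.36) and 2 of 8 (0.34) were called higher. The oocyte markers summed to 110.8 to 359.95 CPM in 6M-12W controls and 358.4 to 483.7 with CUMS, and the granulosa markers to 3410 to 3870 and 5505 to 6875. The part of luteal cells, oocytes and granulosa cells in the histone values was not tested.

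**Figure D3:**
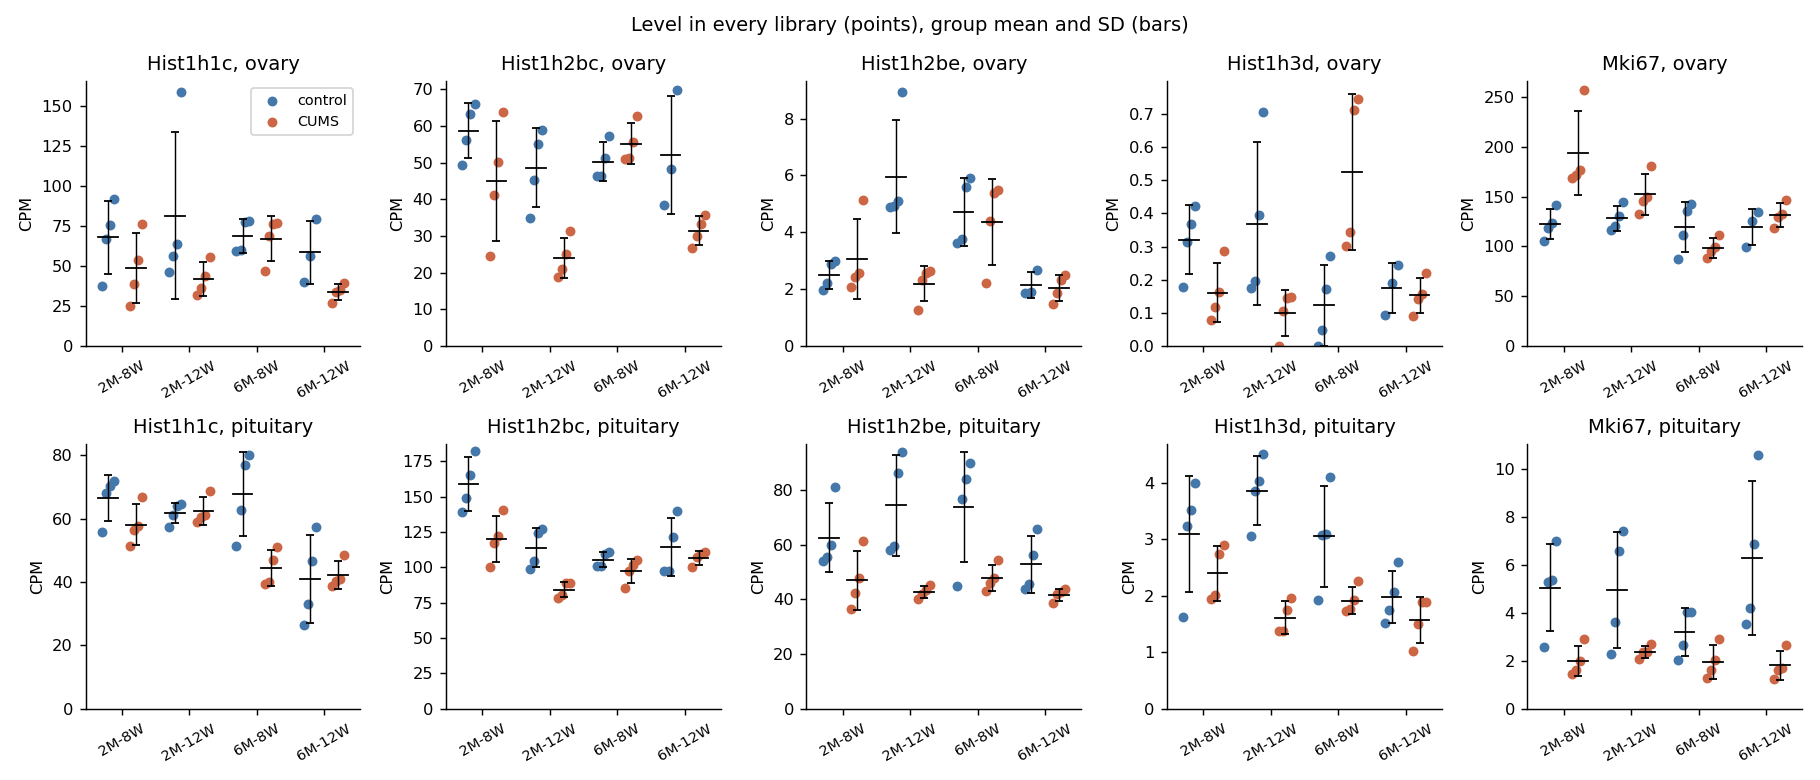
CPM in every library (points), with group mean and SD (bars), of Hist1h1c, Hist1h2bc, Hist1h2be, Hist1h3d and Mki67 in the 4 sets, ovary in the upper row and pituitary in the lower, controls and CUMS in different colours. Ovary Hist1h1c shows the 2M-12W control at 159 CPM above all others, and pituitary Hist1h2be, Hist1h3d and Mki67 have CUMS means below control means in every set.

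In the pituitary at least 1 member of each of the 5 histone classes was called lower after stress. As the mean of the 4 sets 14 of 38 members were called lower and none higher, where 6.44% of all 17001 genes were called and 3.37% were called lower. The median fold was -0.35 against 0.00 for all genes, and 35 of 38 were below 0. Called were 4 of 6 H3, 5 of 11 H4, 3 of 10 H2B, 1 of 8 H2A and 1 of 3 H1 members. Of the 8 H2A members 6 had a mean fold below 0, and in the 6M-8W set 3 of 8 did.

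The H3 gene Hist1h3e (chr13:23561534-23562369) had the smallest p (-0.89 ± 0.14, adjusted p 0.000105). It had 1.64, 2.05, 2.5 and 2.72 CPM in 2M-8W controls and 1.08, 0.851, 1.26 and 1.48 with CUMS. In 6M-12W it had 2.26, 2.55, 2.15 and 2.76 against 1.27, 1.19, 1.51 and 0.767. These groups did not overlap, and all 16 CUMS pituitaries were below the mean of their own controls.

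Hist1h2be, an H2B gene, had 53.9, 55.6, 81.0 and 59.8 CPM in 2M-8W controls and 36.3, 42.2, 61.3 and 47.7 with CUMS, and 65.6, 45.4, 56.3 and 43.6 against 42.7, 43.6, 38.5 and 41.9 in 6M-12W (mean fold -0.56 ± 0.10, adjusted p 0.000242). These groups overlapped or touched, yet all 16 CUMS pituitaries were below their controls' mean. The same held for Hist1h3f (-0.94 ± 0.17, adjusted p 0.000452), Hist1h3d (-0.67 ± 0.13, adjusted p 0.00128) and Hist1h2bc (-0.28 ± 0.06, adjusted p 0.00530). The linker histone gene Hist1h1e (-0.73 ± 0.16, adjusted p 0.00394), Hist1h4n (-0.83 ± 0.21, adjusted p 0.0159), Hist2h4 (-0.42 ± 0.10, adjusted p 0.00690), Hist1h4k (-0.41 ± 0.11, adjusted p 0.0145), Hist1h4i (-0.40 ± 0.11, adjusted p 0.0270), Hist2h3c2 (-0.38 ± 0.12, adjusted p 0.0498) and Hist2h2be (-0.16 ± 0.04, adjusted p 0.00790) were also called. The call of Hist2h3c2 is not firm: it passed in 12 of 39 alternatives, its adjusted p ran to 0.0938 with single libraries left out, and its fold turned to 0.16 with Mki67 as a covariate. The remaining 2 were Hist1h4h (-0.56) and, with a fold outside the naming rule, Hist1h2ac (-0.44). Hist1h1c (-0.20 ± 0.07, adjusted p 0.108) and Hist3h2a (0.09 ± 0.06, adjusted p 0.438) did not pass.

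Among the 4 pituitary sets, 2M-12W had the most calls: 4 of 38 members, all lower, where 0.582% of all genes were called and 0.194% were called lower. Hist1h3d had 3.05, 4.52, 3.84 and 4.04 CPM in controls and 1.75, 1.37, 1.37 and 1.96 with CUMS (-1.28 ± 0.26, adjusted p 0.0133). Hist1h2be had 57.9, 86.3, 93.8 and 59.4 against 43.2, 41.9, 40.2 and 45.1 (-0.83 ± 0.19, adjusted p 0.0342). Neither gene overlapped between groups, and CUMS libraries lay closer together than controls.

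The low-count genes Hist1h3f and Hist1h4n were the other calls. Hist1h3f had 1.24, 2.45, 3.84 and 1.96 CPM in 2M-12W controls and 1.15, 0.610, 0.874 and 0.980 with CUMS (-1.41 ± 0.33, adjusted p 0.0393). Hist1h4n had 0.682, 1.003, 1.5 and 0.856 against 0.273, 0.407, 0.164 and 0.403 (-1.69 ± 0.40, adjusted p 0.0431). In this set 36 of 38 folds were below 0 and the median was -0.54. The 4 calls became 0 without control 2, CUMS 2 or CUMS 3, 1 without control 3, CUMS 1 or CUMS 4, and 2 without control 4. In a fit of the 8 libraries alone 1 was called.

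In 6M-8W pituitaries 1 member was called, where 4.7% of all genes were and 2.4% were called lower. Hist1h1c had 80.0, 62.6, 51.4 and 76.8 CPM in controls and 51.1, 46.9, 39.3 and 39.9 with CUMS, separated by a narrow gap (-0.59 ± 0.15, adjusted p 0.0153). In the other sets its folds were -0.22 ± 0.15, -0.02 ± 0.15 and 0.03 ± 0.15 (2M-8W, 2M-12W and 6M-12W), and the difference between sets did not pass (adjusted p 0.355). The 6M-8W call ended without controls 1 or 4 or CUMS 3 or 4, and 3 members were called without control 3 and 2 without CUMS 1. The median fold of this set was -0.19 (-0.29 without control 3), with 32 of 38 below 0.

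No member was called by edgeR in 2M-8W pituitaries (unadjusted p under 0.05 for 10, none by DESeq2, 0.424% of all genes called) or in 6M-12W (unadjusted p under 0.05 for 5, Hist1h3e by DESeq2, 0.276% of all genes called). In 2M-8W 31 of 38 folds were below 0 (median -0.33, and -0.20 without control 3), and the smallest p-values were those of Hist1h4j (-0.69 ± 0.20, adjusted p 0.166), Hist1h2bc (-0.44 ± 0.13, adjusted p 0.172) and Hist1h3e (-0.95 ± 0.29, adjusted p 0.203). In 6M-12W 27 were below 0 (median -0.13, and -0.23, -0.20 and -0.20 without CUMS 1, CUMS 3 or control 4), and the smallest p-values were those of Hist1h3e (-1.05 ± 0.29, adjusted p 0.114), Hist1h3f (-0.96 ± 0.35, adjusted p 0.293) and Hist2h4 (-0.52 ± 0.20, adjusted p 0.317). The stress effect differed between sets for 0 of 38 members by edgeR (unadjusted p under 0.05 for 4, none by DESeq2, 0.465% of all genes called).

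**Figure D4:**
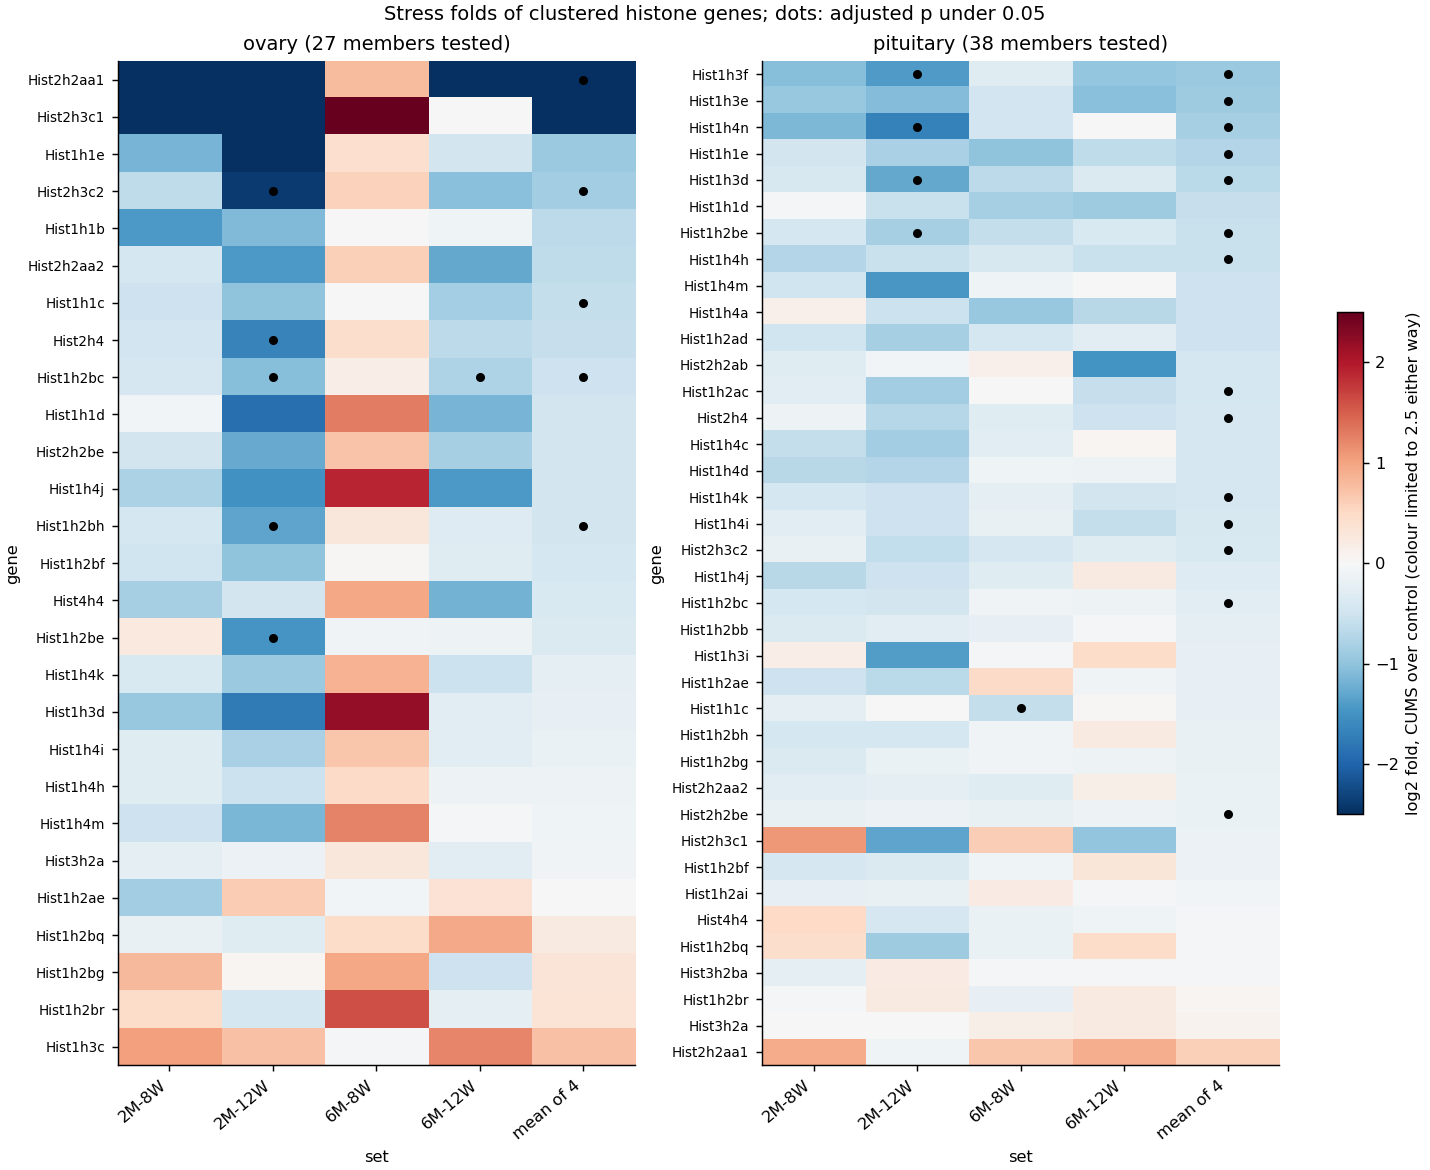
log2 folds (CUMS over control) of the 27 ovary and 38 pituitary members tested, one row per gene ordered by the mean of the 4 sets and one column per set, colour limited to 2.5 either way and a dot where the adjusted p is under 0.05. The ovary 6M-8W column is mostly red (22 of 27 above 0) beside blue columns, and the pituitary columns are mostly blue, with 14 dots in the mean column. The colours of Hist2h2aa1 and Hist2h3c1 come from fitted folds of uncertain copies and are no measure of size.

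By transcript end, the pituitary mean folds had medians of -0.41 for the 22 members running past the stem-loop (9 called lower), -0.37 for the 8 ending there (2 called), -0.31 for the 4 with the coding part alone (1 called) and -0.10 for the 4 with bases after the stop codon but no stem-loop (2 called, Hist1h2bc and Hist2h2be). In the 4 members known for polyadenylated messages, Hist1h1c, Hist1h2bc, Hist2h2be and Hist3h2a, the median was -0.18. In ovary the corresponding medians by end were -0.41, -0.44, -0.45 and -0.12. The median of the 4 members without the stem-loop was the closest to 0 in both tissues, but in ovary these went both ways: Hist1h2bc -0.52, Hist2h2be -0.46, Hist1h2bq 0.23 and Hist1h2br 0.35. The difference between kinds was not tested.

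Control groups also differed between sets. In pituitary 16 of 38 members were called, where 35.3% of all genes were, led by the H4 genes Hist1h4h (adjusted p 2.91e-05), Hist1h4j (adjusted p 7.41e-05) and Hist1h4i (adjusted p 8.16e-05). Hist1h2bc was among them (adjusted p 0.000834), with 139, 149, 182 and 165 CPM in 2M-8W controls against 109, 101, 101 and 111 in 6M-8W controls. In ovary 1 member was called, where 9.74% of all genes were: Hist1h2be (adjusted p 0.00866), with 2.88, 1.98, 2.21 and 2.98 CPM in 2M-8W and 1.91, 2.68 and 1.86 in 6M-12W controls against 5.58, 3.77, 3.61 and 5.90 in 6M-8W controls. Without control 1 of 2M-12W the ovary count was 4, and without controls 2 or 4 of 2M-12W or control 2 of 6M-12W it was 2. Age, duration and any batch of the sets cannot be told apart here.

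Whether the members follow proliferation was asked with Mki67, a nuclear protein of dividing cells. In the pituitary Mki67 fell as the mean of the 4 sets (-1.25 ± 0.19, adjusted p 7.09e-05). It had 6.85, 3.52, 10.6 and 4.2 CPM in 6M-12W controls and 1.59, 2.65, 1.71 and 1.26 with CUMS (-1.85 ± 0.39, adjusted p 0.0245), and all 16 CUMS pituitaries were below their controls' mean. In the ovary Mki67 ran between 87.3 and 258 CPM, and its mean fold was 0.17 ± 0.07 (adjusted p 0.0897). Its ovary stress effect differed between sets (adjusted p 0.0460).

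Within groups, the slope of a gene on Mki67 is its log2 change per log2 unit of Mki67. In pituitary 4 of 38 members had a slope past the test, all positive, where 0.688% of all genes did and 0.518% had a positive one: Hist2h3c2 (0.45 ± 0.09, adjusted p 0.0200), Hist1h2be (0.36 ± 0.07, adjusted p 0.0203), Hist1h2bc (0.24 ± 0.05, adjusted p 0.0209) and Hist1h3d (0.46 ± 0.11, adjusted p 0.0406). Slopes were above 0 in 31 of 38, with a median of 0.24. Hist1h1c (0.07 ± 0.08), Hist2h2be (-0.02 ± 0.04) and Hist3h2a (-0.09 ± 0.06) had slopes near 0. No slope passed without control 1 of 2M-12W or control 2 of 6M-12W, 2 passed without control 3 of 6M-12W, and none passed with Malat1 and Neat1 in the same fit.

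In ovary no member's slope on Mki67 passed with edgeR (unadjusted p under 0.05 for 4, Hist2h2aa2 by DESeq2), where 1.61% of all genes passed, and 21 of 27 lay below 0 with a median of -0.77. Without CUMS 3 of 2M-8W, the library with the highest Mki67, the median was -0.37. Of the H3 genes 1 of 4 lay below 0, with a median of 0.51. Among these 4, Hist1h3c, Hist1h3d and Hist2h3c1 reached 10 counts in 3 ovary libraries alone, and the values of Hist2h3c1 are uncertain. The smallest p-values were those of Hist2h2aa2 (-1.80 ± 0.63, adjusted p 0.162), Hist1h2bh (-0.999 ± 0.40, adjusted p 0.227) and Hist1h2bc (-0.73 ± 0.30, adjusted p 0.243). The genes of the cell cycle did follow Mki67 in the same ovaries: 14 of 16 G2 and M genes and 8 of 24 S phase genes had positive slopes past the test, with medians of 0.80 and 0.47 (Mki67 is itself among the 16). In pituitary these counts were 7 of 16 and 1 of 24, with medians of 0.64 and 0.04. Many cell cycle genes thus rose with Mki67 in these ovaries, while no histone slope passed and most lay below 0.

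With Mki67 as a covariate, no pituitary member was called in the mean of the 4 sets (smallest adjusted p 0.133, 6 at an unadjusted p under 0.05). The share of all genes called fell as well, from 6.44% to 1.22%. The members' median fold moved from -0.35 to -0.04, with 22 of 38 below 0, while their median SE rose from 0.15 to 0.22. In ovary 1 of 27 remained called, where 11.2% of all genes were, and the median fold moved from -0.44 to -0.29. Because Mki67 itself fell with stress in the pituitary, the fit cannot tell apart stress and the level of Mki67 beyond what varies within groups.

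A score, the mean log2 CPM of the members tested, describes the libraries together. Over 32 pituitaries its Pearson r with Mki67 was 0.35 pooled and 0.58 after group means were subtracted (Spearman 0.39 and 0.61). Over 31 ovaries r was -0.50 and -0.29 (Spearman -0.54 and -0.31). Without the 2 libraries farthest on the Mki67 axis the values were 0.41 and 0.56 in pituitary and -0.50 and -0.29 in ovary. With the mean of the cell cycle genes, a measure added like the luteal one after the data were seen, r was 0.50 pooled and 0.54 within groups in pituitary and -0.48 and -0.21 in ovary. With the luteal markers it was 0.75 and 0.61 in ovary (Spearman 0.85 and 0.72). Control 3 of the 2M-12W ovaries lay 1.24 above its group mean in the score and 0.45 above it in the luteal markers. The ovary r values without this library were not computed. Libraries share scaling and composition, so all r values of the score are descriptions.

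**Figure D5:**
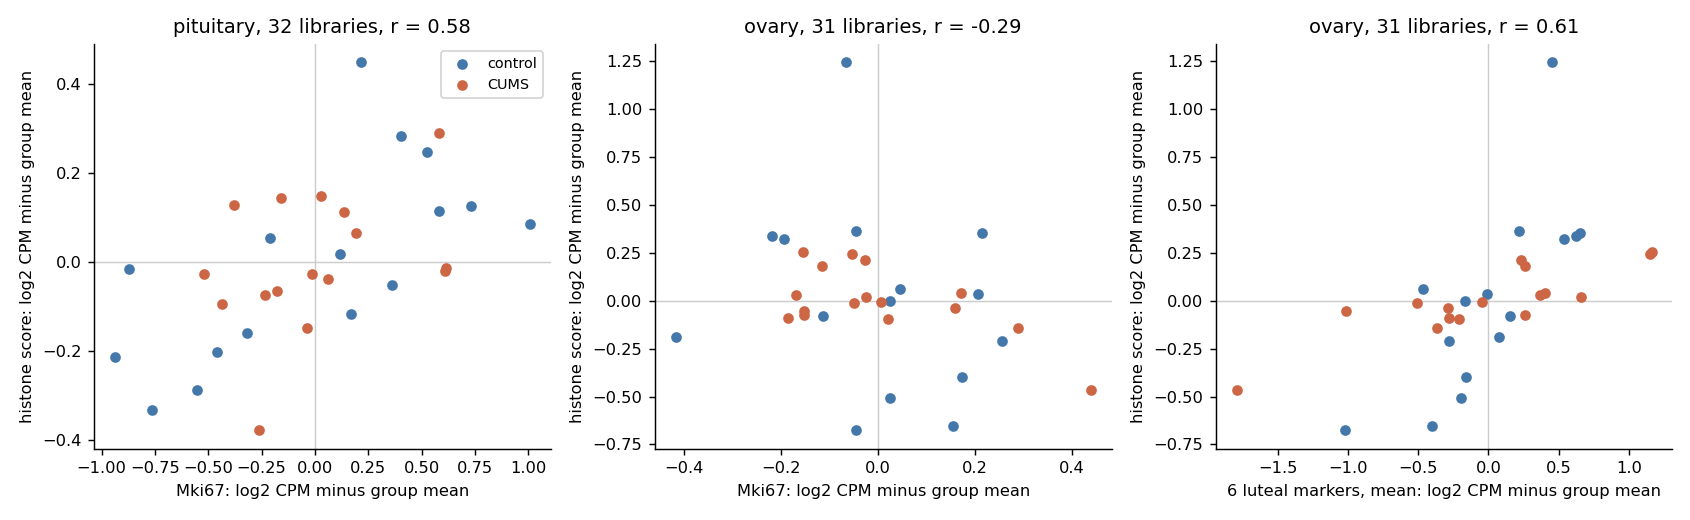
Histone score against Mki67 in pituitary (32 libraries) and ovary (31) and against the mean of 6 luteal markers in ovary, all in log2 CPM minus the group mean, one point per library, controls and CUMS in different colours. The points slope upward in pituitary (r = 0.58), slightly downward for Mki67 in ovary (r = -0.29) and upward for the luteal markers (r = 0.61). The highest point of both ovary panels is control 3 of the 2M-12W set.

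Whether the members follow the capture of RNA without poly-A tails could be asked only in part. Of 33 short RNAs listed for that purpose (such as Rpph1, Rmrp, Terc and the Rny genes, which have no poly-A tail), 6 were in the tables and 1 per tissue passed the filter, Rpph1 in ovary and Terc in pituitary, with at most 13 and 20 reads in a library. In their place, chosen after the data were seen, stand Malat1, a long nuclear RNA that ends without a poly-A tail, and Neat1, whose long form does too while its short form is polyadenylated. Malat1 had at least 15841 reads in every ovary library, where no short RNA of the list had more than 13. Whether the pair tracks the capture of RNA without poly-A tails was not tested, so its slopes cannot answer that question. No member had a slope on their mean that passed with edgeR or DESeq2, in ovary (1 at an unadjusted p under 0.05, 21 of 27 above 0, median 0.21, 0.405% of all genes called) or in pituitary (8 at an unadjusted p under 0.05, 25 of 38 below 0, median -0.15, 5.19% of all genes called). The smallest p-values were those of Hist2h3c1 (adjusted p 0.398), Hist1h1e (1.06 ± 0.53, adjusted p 0.506) and Hist2h2be (0.62 ± 0.32, adjusted p 0.526) in ovary, and Hist1h4d (-0.86 ± 0.29, adjusted p 0.0778), Hist1h2bh (-0.53 ± 0.19, adjusted p 0.0846) and Hist1h2bf (-0.56 ± 0.22, adjusted p 0.126) in pituitary. Control 1 of the 2M-8W ovaries had 172988 Malat1 reads against 15841 to 48015 in the other ovary libraries. Without it the ovary median slope was 0.71 and that of Hist2h2be 2.04, and without control 3 of 2M-12W the median was 0.08. The pituitary median ran from -0.03 (without control 3 of 6M-8W) to -0.24 (without control 1 of 6M-12W), and leaving out controls 1 or 3 of 2M-12W, control 2 of 2M-8W or control 3 of 6M-12W also moved it by over 1.5 times. With the pair as a covariate 5 ovary and 13 pituitary members were called in the mean of the 4 sets. The share of all genes called in these fits is not given, so these counts cannot be set against it. The score's r with the pair was 0.55 pooled and 0.33 within groups in ovary, and 0.27 and -0.25 in pituitary, where it was 0.06 and 0.04 without the 2 farthest libraries and so rests on those.

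Lists of genes of the same machinery had median folds near 0. In the mean of the 4 ovary sets 20.3% of all genes were called and 11.5% were called lower. In pituitary these shares were 6.44% and 3.37%. Of 12 replication-independent histone genes tested in ovary, 3 were called lower in the mean of the 4 sets, H1f0 (-0.16 ± 0.06, adjusted p 0.0419), H2afj (-0.22 ± 0.07, adjusted p 0.0351) and H2afy (-0.25 ± 0.07, adjusted p 0.0169), with a list median of -0.01. In pituitary 1 of 11 was, H1f0 (-0.23 ± 0.06, adjusted p 0.0243), with a median of -0.03. H1f0, the linker histone known from cells that have stopped dividing, was the gene of this list called in both tissues. Of the 12 histone mRNA processing genes tested, Casp8ap2 (0.13 ± 0.04, adjusted p 0.0270) and Cstf2 (0.14 ± 0.05, adjusted p 0.0495) rose in ovary and 0 passed in pituitary, with medians of 0.04 and 0.02.

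The cell cycle lists had negative medians in pituitary and positive ones in ovary as the mean of the 4 sets, and the difference between tissues was not tested. The examples named here were chosen after their values were seen. Of all genes, 20.3% were called in the ovary mean and 6.44% in the pituitary mean, in either direction. In pituitary 8 of 16 G2 and M genes fell in the mean of the 4 sets (median -0.70), among them Top2a (-1.22 ± 0.22, adjusted p 0.000695) and Cdk1 (-1.04 ± 0.23, adjusted p 0.00378), and 2 of 24 S phase genes did, Rrm2 (-1.35 ± 0.25, adjusted p 0.000906) and E2f1 (-0.35 ± 0.09, adjusted p 0.0103). In ovary 9 of 24 S phase genes rose (median 0.15), among them the replication helicase genes Mcm3 (0.25 ± 0.05, adjusted p 0.00146) and Mcm6 (0.22 ± 0.05, adjusted p 0.00259), and 0 of 16 G2 and M genes passed with edgeR (median 0.16). The ovary sets differed: in 6M-8W 1 of 24 S phase folds lay above 0 (median -0.17, 1 called lower) and 0 of 16 G2 and M folds did (median -0.23). As the mean of the 4 sets, the histone genes called lower in ovary thus stood beside S phase genes called higher, and in pituitary beside G2 and M genes called lower.

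The genes whose level within groups was most like the score are named by Pearson r over libraries. In ovary, over 31 libraries, they were Arfgef2 (0.86), Cyyr1 (0.83), Fbxl16 (0.82), the HDL receptor gene Scarb1 (0.81), Ccdc126 (0.81), Hip1r (0.81), Pam (0.80), Elmod3 (0.80), Zfand2a (0.80) and Hr (0.79), and the members Hist1h1c (0.87) and Hist2h3c2 (0.83), which are part of the score, also ranked in the first 5. In pituitary, over 32 libraries, they were the collagen gene Col1a2 (0.82), Aga (0.79), Cpq (0.77), Qsox1 (0.77), the lysosomal enzyme gene Hexa (0.74), Nucb1 (0.74), Sez6l2 (0.73), Sil1 (0.73), Glb1 (0.72) and Gabarap (0.72), with no member in the first 5. Mki67 ranked 142 of 17001 in pituitary (0.58) and 15214 of 17766 in ovary (-0.29). The 40 cell cycle genes had a median r of 0.27 in pituitary and -0.15 in ovary, against -0.02 and -0.01 for all genes. Control 3 of the 2M-12W ovaries lay 1.24 above its group mean in the score, farther than any other ovary library. The ovary ranking without this library was not made.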

How the data were processed

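RNA of 31 ovary and 32 pituitary libraries was sequenced. Whether it was selected by poly-A tail or depleted of ribosomal RNA is not reported here. Per the labels' protocols, the kit for library construction was NEBNext Ultra II RNA, after chloroform extraction. The aligner, counter, annotation and strand setting: not given in the sources used here. The authors deposited read counts and FPKM per gene, 1 table per tissue. The deposited FPKM equal count over total and gene length within 1% for 100% of values above 0. Counts per library total 12536371 to 28777668 in ovary and 13514270 to 24924584 in pituitary, so genes with few reads are measured least precisely. No pair of libraries of 1 group agreed within sampling noise (smallest chi-square per degree of freedom 10.5 and 8.88).

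The members and lists were chosen with earlier results of these data known. Counts were fitted per tissue with all 8 groups in edgeR 4.0.16 (R 4.3.3), with TMM scaling, filterByExpr, the quasi-likelihood F test and Benjamini-Hochberg adjustment over all genes tested, checked on simulated counts. The biological coefficient of variation was 0.207 in ovary and 0.158 in pituitary. CPM shown per library divide by the library total without a TMM factor, folds include it, SE is the fold over the root of F, and the score uses a prior count of 2. Transcript ends come from GENCODE (68 members matched by gene ID and 3 by symbol and overlap) and promoters from RefSeq, both on GRCm38. The planned index of short RNAs without poly-A tails could not be formed and was replaced by Malat1 and Neat1 after the data were seen.

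Named are the 10 kept members with the highest mean FPKM per tissue. Of each stress comparison and slope, all members called are named if 12 or fewer, otherwise the 6 highest and 6 lowest, and the 3 of smallest p where there was no call. Hist1h1c, Hist1h2bc, Hist2h2be, Hist3h2a, Hist1h3d and Mki67, members at the edge of the count rule and the genes most like the score (10 outside the lists, 5 of any list) are named in any case. Alternatives were RLE scaling, no filter, DESeq2 1.42.0, the compared groups alone, the replicate block, each library left out, and Mki67 or Malat1 and Neat1 as covariates.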

Additional observations from a re-analysis of the deposited data

Results flagged for a closer look

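Of 105 groups of 4 values tested (7 measures in the groups with 4 libraries), 6 held a library far from the others, and chance gives about 1 in 20. In the 2M-12W ovaries control 3 had 159.2 CPM of Hist1h1c against 46.4 to 63.7 in the other controls, 176.3 CPM of Hist2h2be against 30.1 to 37.8, and 483.8 CPM summed over the members other than the 4 Hist2 copies against 167.7 to 191.8. In the 6M-8W ovaries control 4 had 26.5 CPM of Hist3h2a against 21.4 to 21.7. In the 2M-8W ovaries CUMS 3 had 257.6 CPM of Mki67 against 168.8 to 177.0. In the 2M-8W pituitaries control 3 had 31.1 CPM of Hist2h2be against 37.7 to 38.8.

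The stress effect in ovary differed between the 4 sets, by an F test of the difference in edgeR, for Hist1h3d (adjusted p 0.0380) and Hist2h3c2 (adjusted p 0.0449).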

How the results depend on the processing

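The values here are counts of members called. Except with Mki67 as a covariate, the share of all genes called in these alternatives is not given. A higher count is therefore no stronger result for the members. With RLE scaling every count stayed within 1.5 times. With DESeq2 the ovary counts were 10 for the 2M-12W set, 3 for 6M-12W, 1 each for 2M-8W and 6M-8W, 8 for differences between sets, 5 for controls and 1 for the slope on Mki67. The pituitary counts were 8 for the 2M-12W set, 3 for 6M-8W and 1 for 6M-12W. With the compared groups alone they were 0 in 2M-12W and 5 in 6M-12W ovaries, and 1 in 2M-12W and 2 in 6M-8W pituitaries. Without the filter 2 remained in 2M-12W pituitaries and 0 for differences between ovary sets. With Mki67 as a covariate the ovary counts were 1 for the mean and 0 for differences between sets, and the pituitary counts 0 for the mean and 0 in 2M-12W; the pituitary mean fold of Hist2h3c2 turned to 0.16. With Malat1 and Neat1 as a covariate 0 members differed between ovary sets, and with both covariates 0 pituitary slopes on Mki67 passed. The cause was not tested.

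The replicate numbers were not taken as a pairing, as not every same-numbered pair deviated together. Of these pairs, 3 of 15 in ovary and 5 of 16 in pituitary had a correlation above 0.1 (up to 0.201 and 0.267). Between different numbers the highest value was 0.210 in ovary and 0.092 in pituitary. In pituitary, correlations above 0.1 thus occurred in same-numbered pairs alone, and a pairing within sets was not tested. The replicate block shares its terms over all sets, so it is no such pairing. With the replicate block 0 members differed between ovary sets, and no other count moved by over 1.5 times (6 for the ovary mean, 13 for the pituitary mean).

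With each library left out in turn, ovary counts ran from 4 to 9 in 2M-12W, 0 to 0 in 2M-8W and 6M-8W, 0 to 1 in 6M-12W, 3 to 8 for the mean, 0 to 6 for differences between sets, 1 to 4 for controls and 0 to 1 for the slope on Mki67. Pituitary counts ran from 0 to 6 in 2M-12W, 0 to 3 in 6M-8W, 11 to 15 for the mean, 14 to 19 for controls, 0 to 6 for the slope on Mki67 and 0 to 1 for the slope on Malat1 and Neat1. After the data were seen, the ovary mean was also computed without CUMS 1 and 3 of 2M-8W (6) and the pituitary mean without controls 3 and 4 of 6M-12W (16).

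The pituitary score's r with Malat1 and Neat1 was 0.058 pooled and 0.039 within groups without the 2 farthest libraries. Its r with the cell cycle genes was 0.34 pooled without the 2 farthest and, within groups, 0.64 without Hist2h2aa1 and Hist2h3c1. Of 1472 alternatives over 53 results on named genes, 1339 kept direction and side of the threshold, 126 lost the threshold, 6 gained it and 1 turned. The alternatives with the index of short RNAs were not run because it could not be formed. Depth limits genes of few reads, such as Hist1h3d in ovary.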

Other observations

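Many H2A and H2B genes stand head to head and share 1 promoter region, and 14 such pairs of members lie 172 to 305 bases apart (GRCm38). Their levels can be far from equal. Hist1h2bc had 61.8 FPKM in ovary and 152.9 in pituitary, while Hist1h2ac, 274 bases away, had 0.369 and 3.11. Hist2h2be had 13.3 and 13.8 FPKM, and Hist2h2ac, 238 bases away, 0.149 and 0.0729. In both of these pairs the gene with the higher level has bases after its stop codon without the stem-loop, and its partner carries the stem-loop. Hist1h2br, without the stem-loop, likewise had 0.173 and 0.327 FPKM against 0.0359 and 0.0370 for Hist1h2ap, which carries it. Its near-identical copy Hist1h2bq went the other way, with 0.139 and 0.222 FPKM against 0.503 in both tissues for Hist1h2ao, which carries the stem-loop.

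Other pairs also had unequal levels, by different amounts in ovary and pituitary. Hist3h2a, which carries the stem-loop, had 10.5 FPKM in ovary and 11.1 in pituitary, against 0.119 and 0.674 for Hist3h2bb-ps, 172 bases away. Hist1h2bf had 3.62 FPKM in ovary and 7.84 in pituitary, against 0.316 and 3.41 for Hist1h2ad, 273 bases away. Hist1h2ae had 0.705 and 1.09 FPKM against 1.4 and 13.7 for Hist1h2bg, 286 bases away. These are levels of single genes compared per length, without a test.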
